A study of Drosophila melanogaster with 9 samples.

Results

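The genes described here are 10 genes of the circadian clock of Drosophila melanogaster: Clk, cyc, per, tim, vri, Pdp1, cwo, cry, Pdf and Pdfr. They were chosen by name, with earlier results of these data known, and each was found in the deposited table by its FlyBase identifier, 10 of 17490 genes in all. All 10 passed the filter on low counts, which left 12963 genes for testing. Poly(A) RNA was sequenced from whole heads, 200 per sample, of flies that the labels call wild type Canton-S w1118 (iso1CJ). Flies had lived alone for 7 days, alone for 1 day, or in a group for 7 days, and each housing condition had 3 samples. No group was sampled after 1 day. In 1 day alone against the group, housing and days of treatment therefore cannot be told apart. Every sample was taken at ZT0.5-2, where zeitgeber time (ZT) counts hours from lights on. The labels give no finer collection time for single samples, and neither sex nor age. They do not say whether the samples of a condition came from separate cultures. The p-values therefore rest on the spread between these samples, which may be technical.

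The fly clock is a loop of transcription and repression. The bHLH-PAS proteins CLOCK (Clk) and CYCLE (cyc) bind E-boxes as a pair and switch on per, tim, vri, Pdp1 and cwo. PERIOD (per) and TIMELESS (tim) accumulate in the cytoplasm, enter the nucleus at night and shut down the activity of that pair. In a second loop VRILLE (vri) represses and PDP1 activates transcription of Clk, and CLOCKWORK ORANGE (cwo) acts at the same E-boxes. CRYPTOCHROME (cry) absorbs blue light and triggers the loss of TIM, which sets the phase of the clock. The neuropeptide PDF, made by the ventral lateral clock neurons, carries time signals to other clock neurons through its receptor PDFR. In fly heads, mRNA of per and tim peaks in the early night and is declining or low in the morning, whereas mRNA of Clk and cry is high around dawn and cyc does not cycle. Photoreceptors and glia hold clocks as well, so whole-head mRNA of these genes comes from more than the clock neurons of the brain.

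At this morning time point the clearest difference lay in the repressor pair, and it was found after 1 day alone. The tim mRNA fell by 0.35 on the log2 scale after 1 day alone against the group, while per stood at 0.17 above the group without passing the test. Heads after 7 days alone had more tim (0.35) and less per (-0.24) than heads after 1 day alone, and both differences passed. Of all tested genes 3.96% passed for 1 day alone against the group, and 4.62% between the isolation times. These calls depended on single libraries. Of 9 fits that each left out a library, 3 kept the call of tim against the group. Between the isolation times 1 kept that of tim and 5 that of per. After 7 days alone no clock gene differed from the group by the test. The other members did not pass in any of the 3 comparisons, although Clk, cry and Pdf, like tim, had their 3 libraries of 1 day alone below all 3 group libraries, as did 15.1% of all tested genes.

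Library totals ranged from 39698143 to 53514747 counts, and single members from 1417 counts (per) to 21056 counts (cry) in a library. The libraries of 1 day alone were the smallest, at 39698143 to 41404688 counts. Those of 7 days alone and the group held 47381611 to 53514747 counts, without overlap. Depth thus went with 1 day alone, and its part in the differences was not tested. All 4 neuronal, 5 glial and 6 photoreceptor markers that could be matched were detected in every library. Gut and male reproductive tract transcripts marked 5 of the 9 libraries, spread over all 3 conditions: replicates 1 and 3 of 7 days alone, replicates 1 and 2 of 1 day alone, and replicate 2 of the group. The 18 markers summed to between 365 and 843 CPM (counts scaled to a common library total) in these 5, and to between 2.13 and 4.47 CPM in the 4 without them. When body tissue was added to the model as a term, the difference of the clock genes between libraries with and without it ran from -0.20 (Pdf) to 0.08 (Pdp1) on the log2 scale, and none passed (lowest edgeR adjusted p = 0.074, for cry at -0.13). In RNA from whole heads, fewer cells of a type and less RNA per cell cannot be told apart.

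**Figure D1:**
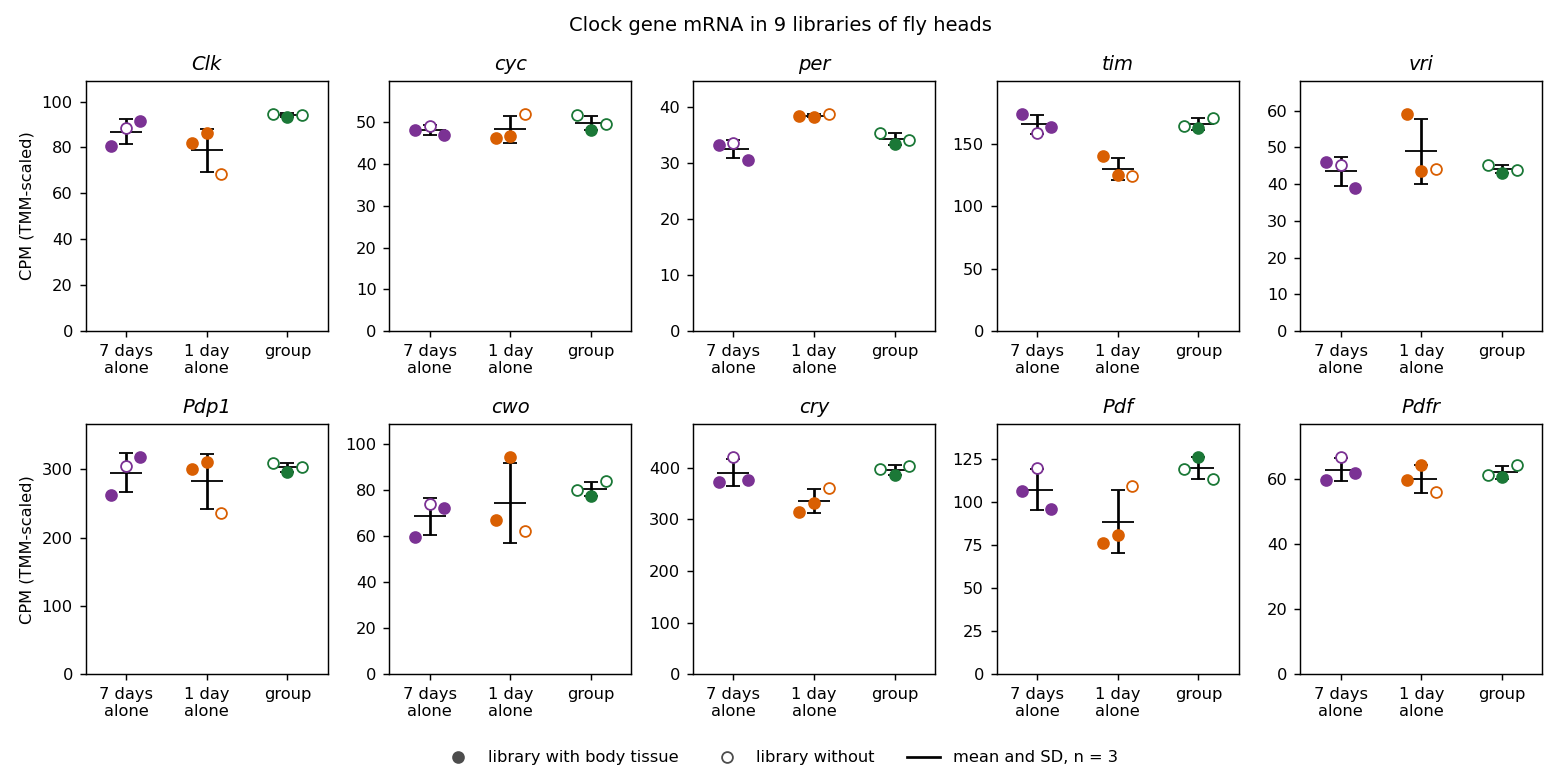
CPM (TMM-scaled) of each clock gene in the 9 libraries, for 7 days alone, 1 day alone and group, with the mean and SD of 3 libraries as lines; filled points are libraries with body tissue. The 3 libraries of 1 day alone lie below both other conditions for tim and above both for per, while for vri, Pdp1 and cwo the widest spread is that of 1 day alone.

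Levels of different genes are compared as CPM per kilobase of exon, averaged over the 9 libraries. The length is the summed exon of a gene, which can exceed any 1 of its mRNAs where several transcripts are annotated. Pdp1 has 13 annotated transcripts and tim 10, while cry, Pdf and cyc have 1 each, so the order depends on this length. Without division by length, single libraries held 236 to 318 CPM of Pdp1, 76.1 to 126 CPM of Pdf and 46.4 to 52.1 CPM of cyc. The light receptor gene cry had the highest level at 197 ± 17.9 CPM per kb (SD, n = 9), and 97.0% of tested genes were lower. Pdf followed at 155 ± 25.9 CPM per kb, and its libraries overlapped those of cry. All libraries of both genes lay above those of the other 8. Next came cyc at 30.0 ± 1.28, tim at 24.8 ± 3.08, Pdp1 at 24.2 ± 2.17 and Clk at 19.2 ± 1.90 CPM per kb. The lowest levels were those of cwo at 14.6 ± 2.15, Pdfr at 13.2 ± 0.689, vri at 9.59 ± 1.17 and per at 7.73 ± 0.627 CPM per kb, and 48.4% of tested genes were lower than per. From tim down to per, the ranges of neighbours in this order overlapped over the 9 libraries, and those of cyc and tim did not. The levels of tim and per per kb did not overlap, with tim at 20.1 to 28.1 CPM per kb and per at 6.75 to 8.56 CPM per kb.

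**Figure D2:**
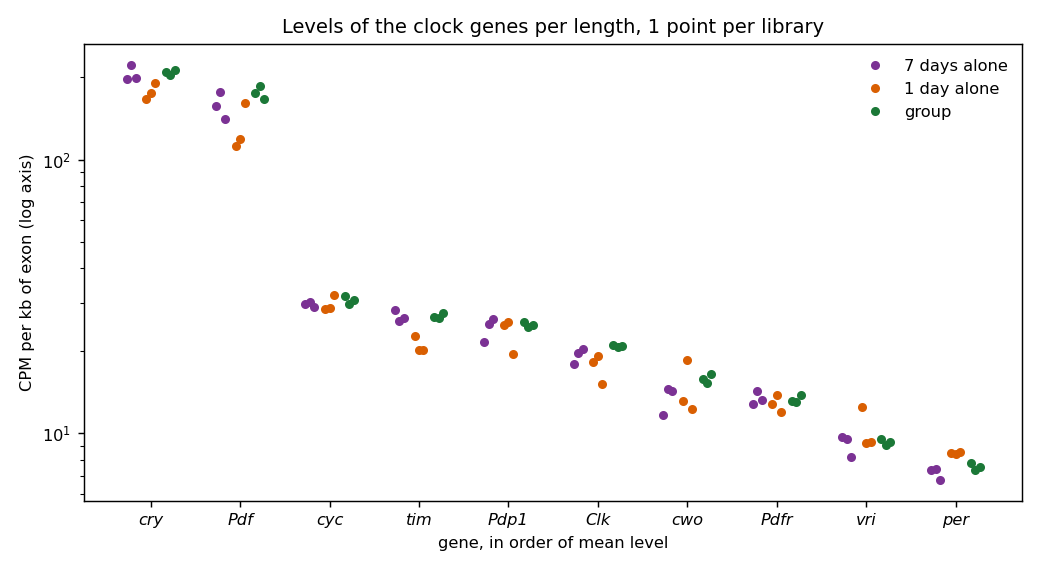
Level of each clock gene in CPM per kilobase of exon (log axis), 1 point per library, in order of the mean over 9 libraries. cry and Pdf stand at 112 CPM per kb or more in every library, and the other 8 genes at 32.1 CPM per kb or less.

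The negative limb of the loop is formed by per and tim. The gene per (FBgn0003068, chromosome X, 2685580 to 2692780, plus strand, BDGP6 annotation of Ensembl) has 4527 bases of exon, of which 49 overlap dyw on the other strand. The gene tim (FBgn0014396, chromosome 2L, 3493986 to 3508119, minus strand) has 6181 bases of exon and overlaps no other gene's exons. For tim the libraries held 174, 159 and 163 CPM after 7 days alone, 139.9, 125 and 124 CPM after 1 day alone, and 164, 162 and 171 CPM in the group. All 3 libraries of 1 day alone were below the other 6, whereas 7 days alone and the group overlapped. The mean was 165 ± 7.80 CPM after 7 days alone, 130 ± 8.89 CPM after 1 day alone and 166 ± 4.41 CPM in the group (SD, n = 3 each).

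The tim transcript fell by 0.35 on the log2 scale after 1 day alone against the group (SE 0.0558, 95% interval -0.48 to -0.22, edgeR adjusted p = 0.0173), a difference of -21.8% in level. Between the isolation times it rose by 0.35 at 7 days over 1 day (SE 0.0558, interval 0.22 to 0.48, edgeR adjusted p = 0.0170). Its difference between 7 days alone and the group was -0.00 (interval -0.13 to 0.13, edgeR adjusted p = 0.993). In the test of any difference among the 3 conditions tim was the single clock gene called (edgeR adjusted p = 0.0211), against 4.49% of all tested genes. Both calls of tim rest on comparisons that share the 3 libraries of 1 day alone.

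For per the libraries held 33.1, 33.6 and 30.5 CPM after 7 days alone, 38.3, 38.1 and 38.7 CPM after 1 day alone, and 35.3, 33.3 and 34.0 CPM in the group. The 3 libraries of 1 day alone were above the other 6, with a coefficient of variation of 0.795% among them, and 7 days alone and the group overlapped. The mean was 32.4 ± 1.64 CPM after 7 days alone, 38.4 ± 0.305 CPM after 1 day alone and 34.2 ± 1.04 CPM in the group (SD, n = 3 each). Between 7 days and 1 day alone per fell by 0.24 on the log2 scale (SE 0.0470, interval -0.35 to -0.13, edgeR adjusted p = 0.0331). After 1 day alone against the group it stood at 0.17 (SE 0.0469, interval 0.06 to 0.28, edgeR adjusted p = 0.105). After 7 days alone against the group it stood at -0.08 (interval -0.19 to 0.03, edgeR adjusted p = 0.880).

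With tim low and per high after 1 day alone, the ratio of both within a library set that condition apart. The ratio of tim to per CPM was 5.25, 4.72 and 5.35 after 7 days alone, 3.65, 3.27 and 3.21 after 1 day alone, and 4.64, 4.88 and 5.02 in the group. The ratios of 7 days alone and of the group overlapped, and every library of 1 day alone was below both. This ratio is a description of the values given above and carries no test.

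**Figure D3:**
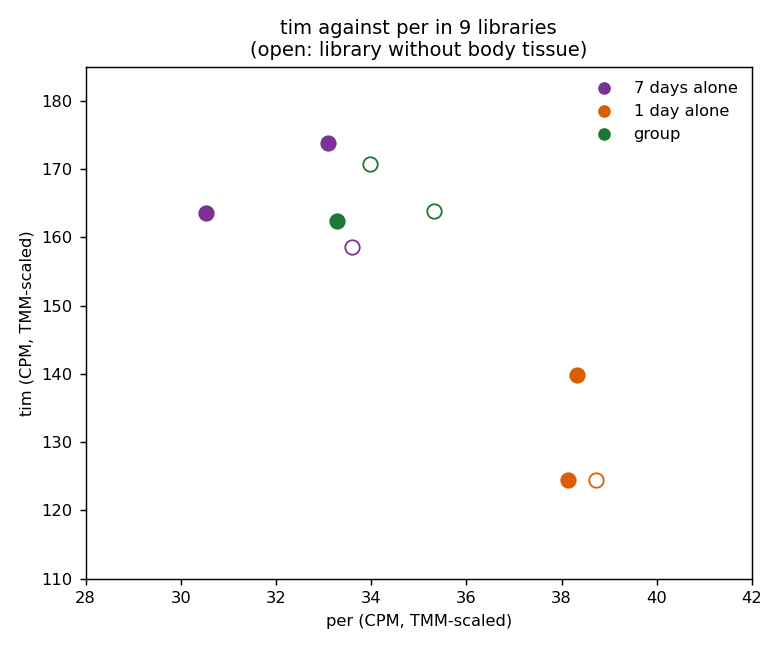
tim against per in CPM, 1 point per library, coloured by 7 days alone, 1 day alone and group; open points are libraries without body tissue, and neither axis starts at 0. The 3 libraries of 1 day alone sit apart at 38.1 to 38.7 CPM of per and 124 to 139.9 CPM of tim.

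The direction of both genes was the same with and without body tissue. Among libraries with body tissue tim differed by -0.28 and per by 0.22 after 1 day alone against the group (2 libraries against 1). Among libraries without it tim differed by -0.41 and per by 0.18 (1 library against 2). With the term for body tissue, tim at 1 day alone against the group kept its call (-0.37, edgeR adjusted p = 0.0137). Fold changes went with gene length across all genes at 1 day alone against the group (Spearman rho = -0.407, across genes, which are not independent replicates), and tim is long. With a trend by length removed in each library, which left rho at -0.189, tim stood at -0.23 (edgeR adjusted p = 0.142) and per at 0.27 (edgeR adjusted p = 0.0691). Between 7 and 1 day alone the same setting gave 0.26 for tim (edgeR adjusted p = 0.0966) and -0.32 for per (edgeR adjusted p = 0.0370).

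The calls of tim and per depended on single libraries, while their directions did not. For 1 day alone against the group, tim stayed called without replicate 1 of 7 days alone, replicate 1 of 1 day alone or replicate 2 of the group (edgeR adjusted p = 0.0284, 0.0463 and 0.0437). It lost the call without replicate 2 or 3 of 7 days alone (0.0635 and 0.0673), replicate 2 or 3 of 1 day alone (0.0800 and 0.0708) and replicate 1 or 3 of the group (0.146 and 0.170). Its log2 fold change lay between -0.40 and -0.27 in these 9 fits. For 7 days against 1 day alone, tim was called only without replicate 1 of 1 day alone (edgeR adjusted p = 0.0461), and the other fits gave 0.0795, 0.118 and 0.140 without replicate 1, 2 or 3 of 7 days alone, 0.0743 and 0.0651 without replicate 2 or 3 of 1 day alone, and 0.0826, 0.0618 and 0.0745 without replicate 1, 2 or 3 of the group. In the same comparison per lost its call without replicate 2 or 3 of 7 days alone (edgeR adjusted p = 0.130 and 0.286), replicate 2 of 1 day alone (0.0862) or replicate 2 of the group (0.118), and kept it in the other 5 fits.

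**Figure D4:**
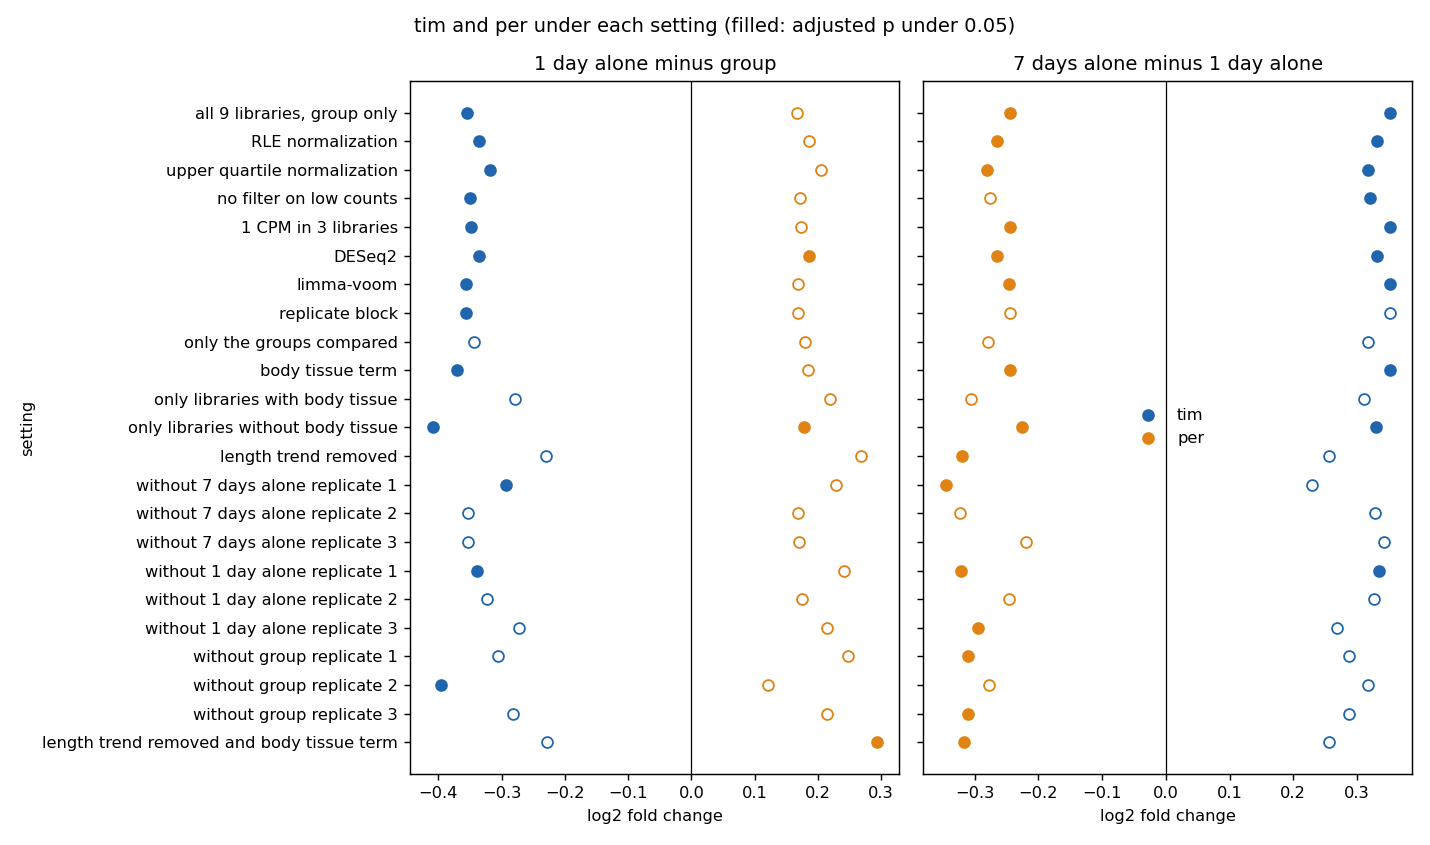
log2 fold change of tim and per under each setting, for 1 day alone minus group and for 7 days alone minus 1 day alone; filled points have an adjusted p under 0.05. tim lies below 0 and per above 0 in every setting of the first comparison, and the reverse holds in the second.

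Photoreceptors hold their own clocks, and their markers were lowest after 1 day alone in 2 of its 3 libraries. The 6 photoreceptor markers summed to 64269 to 70232 CPM after 7 days alone, 56064 to 65779 CPM after 1 day alone and 71058 to 71440 CPM in the group, with none of them at 0 counts in any library. Within 1 day alone the sums were 56064 and 58066 CPM in replicates 1 and 2 and 65779 CPM in replicate 3. The 5 glial markers summed to 2628 to 3053 CPM after 7 days alone, 3073 to 3269 CPM after 1 day alone and 2707 to 2988 CPM in the group. The 4 neuronal markers summed to 2652 to 2873 CPM after 7 days alone, 2561 to 3011 CPM after 1 day alone and 2815 to 3005 CPM in the group. The part of these tissues in the differences of the clock genes was not tested.

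The activators were Clk and cyc. The gene Clk (FBgn0023076, chromosome 3L, 7763233 to 7775603, minus strand) held 80.7, 88.6 and 91.4 CPM after 7 days alone, 82.0, 86.2 and 68.2 CPM after 1 day alone, and 94.7, 93.2 and 94.3 CPM in the group. All 6 libraries of flies kept alone were below all 3 group libraries, and the 2 isolation times overlapped. Against the group, Clk stood at -0.11 after 7 days alone (interval -0.32 to 0.09, edgeR adjusted p = 0.880) and at -0.26 after 1 day alone (interval -0.46 to -0.05, edgeR adjusted p = 0.169). Replicate 3 of 1 day alone was the lowest library of all, and without it the 1 day value was -0.11 (edgeR adjusted p = 0.240). Among libraries without body tissue, where that replicate is the single library of 1 day alone, the value was -0.45, against -0.13 among those with it.

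The partner gene cyc (FBgn0023094, chromosome 3L, 19813770 to 19815938, minus strand) was among the steadiest members. Its libraries held 47.0 to 49.2 CPM after 7 days alone, 46.4 to 52.1 CPM after 1 day alone and 48.2 to 51.7 CPM in the group. These ranges overlapped in each comparison. Its log2 differences were -0.05 for 7 days alone against the group (interval -0.18 to 0.08), -0.04 for 1 day alone against the group (interval -0.17 to 0.08) and -0.01 between the isolation times (interval -0.13 to 0.12).

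In the second loop, vri encodes the repressor of Clk and Pdp1 an activator, both bZIP proteins. The gene vri (FBgn0016076, chromosome 2L, 5288944 to 5311223, plus strand) held 46.1, 45.3 and 38.9 CPM after 7 days alone, 59.2, 43.6 and 44.0 CPM after 1 day alone, and 45.3, 42.9 and 43.9 CPM in the group. Replicate 1 of 1 day alone stood above all other libraries, and the conditions overlapped. The difference of 1 day alone from the group was 0.15 (interval -0.15 to 0.45, edgeR adjusted p = 0.644), and 0.06 without that library. Over the 9 fits that each left out a library it ran from 0.06 to 0.27. The gene Pdp1 (FBgn0016694, chromosome 3L, 7811458 to 7867369, minus strand) held 262, 304 and 318 CPM after 7 days alone, 301, 310.4 and 236 CPM after 1 day alone, and 309, 296 and 302 CPM in the group. Replicate 3 of 1 day alone was the lowest library and the conditions overlapped. Its largest difference was -0.10, for 1 day alone against the group (interval -0.36 to 0.16, edgeR adjusted p = 0.739). The sign of that difference turned on replicate 3 of 1 day alone, without which it was 0.07 (edgeR adjusted p = 0.583). Among libraries with body tissue it was 0.07, and among those without, where that replicate is the single library of 1 day alone, -0.35. The deposited counts sum all transcripts of a gene, and 13 are annotated for Pdp1, so a shift between them would not be seen.

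The E-box repressor gene cwo (FBgn0259938, chromosome 3R, 10388258 to 10400752, plus strand) varied most within a condition. Its libraries held 59.5, 73.9 and 72.4 CPM after 7 days alone, 67.1, 94.5 and 62.3 CPM after 1 day alone, and 80.1, 77.5 and 83.8 CPM in the group. All 3 libraries of 7 days alone were below the group, and 1 day alone spanned both, with a coefficient of variation of 23.3% against 3.94% in the group. The difference was -0.23 for 7 days alone against the group (interval -0.60 to 0.14, edgeR adjusted p = 0.880) and -0.11 for 1 day alone against the group (interval -0.48 to 0.27, edgeR adjusted p = 0.755). Between 7 days and 1 day alone it was -0.12 over all 9 libraries, and 0.22 among the libraries without body tissue. Single libraries also turned its sign. Without replicate 2 of 1 day alone, the highest library, cwo stood at 0.09 for 7 days against 1 day alone and at -0.31 for 1 day alone against the group. Without replicate 1 or 3 of 1 day alone, the value against the group was 0.03 or 0.06. None of the 9 fits that each left out a library called cwo in any of the 3 comparisons.

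The light receptor gene cry (FBgn0025680, chromosome 3R, 19212154 to 19215442, plus strand) has 1896 bases of exon, of which 9 overlap vib on the other strand. It held 373, 421 and 377 CPM after 7 days alone, 314, 333 and 360.2 CPM after 1 day alone, and 397, 385 and 404 CPM in the group. The 3 libraries of 1 day alone were below the other 6, and 7 days alone and the group overlapped. Against the group, cry stood at -0.24 after 1 day alone (SE 0.0652, interval -0.39 to -0.08, edgeR adjusted p = 0.102), a difference of -15.0% in level. Between 7 days and 1 day alone it stood at 0.22 (SE 0.0652, interval 0.06 to 0.37, edgeR adjusted p = 0.126). With the body tissue term the difference between the isolation times passed (0.22, edgeR adjusted p = 0.0368), and that of 1 day alone against the group did not (-0.20, edgeR adjusted p = 0.0701). Without replicate 3 of 1 day alone, cry passed against the group (-0.24, edgeR adjusted p = 0.0438). Without replicate 1 of 1 day alone, its lowest library, the value against the group was -0.12 (edgeR adjusted p = 0.361) and that between the isolation times 0.09 (edgeR adjusted p = 0.444). Without replicate 2 of 7 days alone, its highest library, cry stood at 0.11 between the isolation times (edgeR adjusted p = 0.716).

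The output genes were Pdf and Pdfr. The gene Pdf (FBgn0023178, chromosome 3R, 26455462 to 26456141, minus strand) held 107, 119.6 and 95.9 CPM after 7 days alone, 76.1, 80.7 and 109.6 CPM after 1 day alone, and 119, 126 and 114 CPM in the group. All libraries of 1 day alone were below the group, but replicate 3 was close to it. Pdf had the largest difference of any member, -0.43 for 1 day alone against the group, and also a wide error (SE 0.145, interval -0.77 to -0.09, edgeR adjusted p = 0.165). Replicate 3 is the library of 1 day alone without body tissue. Among libraries without body tissue the difference was -0.07, and among those with it -0.67, each with a single library in 1 of the 2 conditions compared. Leaving replicate 3 of 1 day alone out gave -0.56 (edgeR adjusted p = 0.0283), and leaving out replicate 1, its lowest library, gave -0.26 (edgeR adjusted p = 0.457).

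The receptor gene Pdfr (FBgn0260753, chromosome X, 2552206 to 2578640, plus strand) held 59.8 to 66.8 CPM after 7 days alone, 55.9 to 64.4 CPM after 1 day alone and 60.6 to 64.3 CPM in the group. These ranges overlapped. Its differences were 0.02 for 7 days alone against the group (interval -0.13 to 0.16), -0.05 for 1 day alone against the group (interval -0.20 to 0.10) and 0.07 between the isolation times (interval -0.08 to 0.21), with edgeR adjusted p of 0.944, 0.752 and 0.737.

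**Figure D5:**
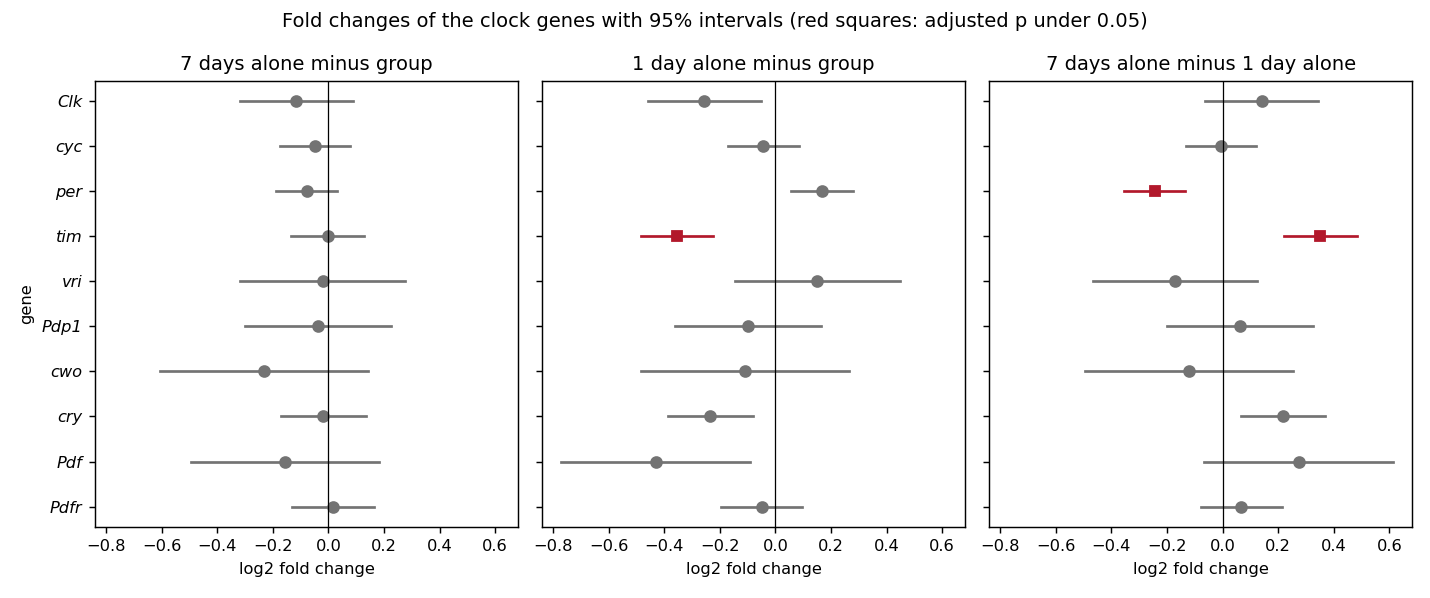
log2 fold change of each clock gene with its 95% interval in the 3 comparisons; red squares have an adjusted p under 0.05. No gene is called for 7 days alone minus group, tim is called for 1 day alone minus group, and per and tim for 7 days alone minus 1 day alone.

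Counted over the 10 clock genes, 7 days alone against the group gave 0 higher and 0 lower, where 0.301% of all tested genes were called, and 1.10% with the body tissue term, which also called 0 members. At an unadjusted p under 0.05 the count was 0 as well, against 6.36% of all genes, and DESeq2 called 0, against 3.22% of the genes to which it gave an adjusted p. The libraries of 2 members, Clk and cwo, lay below the group without overlap, as did 8.45% of all genes. The median log2 difference was -0.04 over the members and 0.01 over all tested genes.

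For 1 day alone against the group, 1 of 10 was called lower, tim, against 2.71% of all genes called lower and 3.96% in either direction. With the body tissue term 1 was called too, against 5.62%. At an unadjusted p under 0.05 there were 5 of 10 (per, tim, Clk, cry and Pdf), against 18.5% of all genes. DESeq2 called 4 (per, tim, cry and Pdf), against 14.7%. The 5 at an unadjusted p under 0.05 had no overlap between conditions: 4 lower, against 15.1%, and per higher, against 9.60%. The median was -0.10 over the members and 0.03 over all tested genes.

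For 7 days against 1 day alone, 1 of 10 was called higher (tim, against 3.11%) and 1 lower (per, against 1.51%), where 4.62% were called in either direction. With the body tissue term cry joined them, making 3 of 10 against 6.90%. At an unadjusted p under 0.05 there were 3 of 10, against 17.4% of all genes, and DESeq2 called 3 (per, tim and cry), against 13.2%. Without overlap, tim and cry were higher, against 12.9%, and per was lower, against 8.70%. The median was 0.06 over the members and 0.04 over all tested genes.

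Genes that act on the clock proteins were looked up from lists made beside the members. Each count of a list stands against the shares of all tested genes. For 7 days alone against the group these were 0.301% called by edgeR, 6.36% at an unadjusted p under 0.05 and 3.22% called by DESeq2. For 1 day alone against the group they were 3.96%, 18.5% and 14.7%, and for 7 days against 1 day alone 4.62%, 17.4% and 13.2%, in the same order. Of 15 genes of kinases, phosphatases and ubiquitin factors that modify PER and TIM, such as dco (doubletime), sgg (shaggy) and jet (jetlag), 0 were called in any of the 3 comparisons by edgeR, and 1 in each had an unadjusted p under 0.05, which is 6.67% of the list. DESeq2 called 0 for both comparisons with the group and 1 between the isolation times. The list medians of the log2 difference were -0.03 for 7 days alone against the group, -0.04 for 1 day alone against the group and 0.04 between the isolation times. Of 12 genes of transcription and translation partners, among them tyf and Atx2, which promote translation of per, edgeR called 0 as well. At an unadjusted p under 0.05 there were 0 for 7 days alone against the group, 1 for 1 day alone against the group and 1 between the isolation times, and DESeq2 called the same numbers. The list medians were -0.01, -0.08 and 0.08 in that order, where the medians over all tested genes were 0.01, 0.03 and 0.04.

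Of 10 genes of light and temperature input, Rh6, a rhodopsin of inner photoreceptors, fell after 1 day alone. It held 651 ± 84.6 CPM after 1 day alone and 902 ± 13.2 CPM in the group (SD, n = 3 each), a log2 difference of -0.47 (SE 0.0941, edgeR adjusted p = 0.0398), with all 3 libraries below the group. Leaving out a library kept this call only without replicate 3 of 1 day alone (edgeR adjusted p = 0.0143, and 0.124 to 0.264 in the other 8 fits). At 1 day alone against the group 4 of the 10 had an unadjusted p under 0.05 and DESeq2 called 5, against 18.5% and 14.7% of all genes. For 7 days alone against the group edgeR called 0, with 0 at an unadjusted p under 0.05 and 0 by DESeq2, and for 7 days against 1 day alone it called 0, with 1 and 1. With the body tissue term Rh6 rose at 7 days over 1 day alone (0.41, edgeR adjusted p = 0.0164). The list includes ninaE, which is also one of the photoreceptor markers given above.

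Of 18 genes of peptides, receptors and channels of clock neurons, Dh44 fell after 1 day alone, and CNMa fell at 7 days against 1 day alone. Dh44, a diuretic hormone of the clock output pathway, held 85.1 ± 3.09 CPM after 1 day alone and 103 ± 3.73 CPM in the group (SD, n = 3 each), a log2 difference of -0.28 (SE 0.0515, edgeR adjusted p = 0.0319). None of the 9 fits without a library kept this call (edgeR adjusted p = 0.0641 to 0.230). CNMa, a neuropeptide gene, held 1.05 ± 0.0687 CPM after 7 days alone and 2.49 ± 0.162 CPM after 1 day alone (SD, n = 3 each), a log2 difference of -1.24 (SE 0.163, edgeR adjusted p = 0.00941). It lost the call without replicate 2 or 3 of 7 days alone (edgeR adjusted p = 0.0645 and 0.0801). Against the group CNMa stood at 0.72 after 1 day alone (edgeR adjusted p = 0.0586), and it was called there with the body tissue term (0.70, edgeR adjusted p = 0.049). For 7 days alone against the group edgeR called 0 of the 18, with 4 at an unadjusted p under 0.05, against 6.36% of all genes, and DESeq2 called 0. For 1 day alone against the group 2 of the 18 had an unadjusted p under 0.05 and DESeq2 called 2, and between the isolation times there were 3 and 2.

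Of 12 transcripts picked as known to cycle in fly heads, 11 were tested, since CG11891 did not pass the filter. The channel gene trpl fell after 1 day alone, to 1553 ± 62.2 CPM against 2500.1 ± 55.2 CPM in the group (SD, n = 3 each), and was called in all 9 fits without a library. The photoreceptor markers given above were lower after 1 day alone as well, at 56064 to 65779 CPM against 71058 to 71440 CPM in the group, and their part in the fall of trpl and Rh6 was not tested. Between the isolation times trpl and Fmo-2 rose. Fmo-2, a flavin-containing monooxygenase gene, held 88.7 ± 12.1 CPM after 7 days alone and 60.5 ± 3.15 CPM after 1 day alone (SD, n = 3 each), a log2 difference of 0.55 (SE 0.0926, edgeR adjusted p = 0.0205). That call held without replicate 1 of 7 days alone or replicate 3 of 1 day alone (edgeR adjusted p = 0.0178 and 0.0192), and the other 7 fits gave 0.0511 to 0.181. For trpl between the isolation times the difference was 0.50 (edgeR adjusted p = 0.0132), with 3 of the 9 fits keeping the call: those without replicate 2 or 3 of 1 day alone or replicate 3 of the group. The remaining fits gave up to 0.154. For 7 days alone against the group edgeR called 0 of the 11, with 4 at an unadjusted p under 0.05, against 6.36% of all genes, and DESeq2 called 3, against 3.22%. For 1 day alone against the group 4 of the 11 had an unadjusted p under 0.05 and DESeq2 called 2, and between the isolation times there were 3 and 3. With the body tissue term Fmo-2 was called higher for 7 days alone against the group (0.66, edgeR adjusted p = 0.0058).

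The genes most like a member over the 9 libraries were taken as those with the smallest root mean square difference of centred log2 CPM, among the 8518 genes that averaged 5 CPM or more. For per they were CG32225 at 0.0275, Eip78C at 0.0304 and kcc at 0.0324, where per itself varied by 0.110 about its mean. CG32225 held 67.3 CPM after 7 days alone, 78.9 CPM after 1 day alone and 70.7 CPM in the group. For tim, which varied by 0.177, they were FBgn0086613, an identifier with no symbol in the tables used, at 0.0447, TrpA1, a temperature-sensing channel gene, at 0.0497, and CG9886 at 0.0520. CG9886 held 47.0 CPM after 7 days alone, 37.0 CPM after 1 day alone and 45.6 CPM in the group. For Clk they were RhoGAP102A at 0.0357, Pdcd4 at 0.0368 and lqf at 0.0393, and for cry Cpsf100 at 0.0298, Nepl14 at 0.0352 and CG1637 at 0.0352. The patterns share their libraries, so depth and tissue make-up are common to all of them.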

How the data were processed

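Per the submitters' processing notes, the authors used STAR 2.4.2a for alignment, featureCounts for counting and bcl2fastq 2.20 for demultiplexing. Not given in the sources used here are the genome build, the annotation, and how strand and multi-mapped reads were handled. The deposited table holds raw read counts for each gene in each library, with summed exon length, for 17490 genes. Positions came from the deposited table, and for all 10 members they equal the spans in the BDGP6 annotation of Ensembl. That annotation also gave the numbers of transcripts. Symbols were looked up by FlyBase identifier. Counts were fitted with edgeR 4.0.16 (R 4.3.3) across all genes: filterByExpr, TMM, quasi-likelihood test, 9 libraries, group as the only term, Benjamini-Hochberg adjustment over 12963 genes, called at adjusted p under 0.05, two-sided. SE is the absolute log2 fold change over the root of F, and intervals are 95%. CPM are counts per 1000000 of the TMM-scaled total. Alternatives included DESeq2 1.42.0 and limma-voom (limma 3.58.1); DESeq2 shares leave out genes whose adjusted p is NA. Body tissue meant gut and male tract markers over 50 CPM. Likeness used log2 CPM with a prior count of 2. All 10 members were named, with up to 4 called genes of each list per comparison and 3 like genes for per, tim, Clk and cry. Members and lists were chosen with earlier results of these data known. The fit was also run on simulated counts that held no body tissue difference and no length trend, so that run says nothing about either. Figures used matplotlib 3.10.9. Intervals are for the mean log2 difference and rest on the spread between libraries.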

Additional observations from a re-analysis of the deposited data

How the results depend on the processing

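No clock gene was called for 7 days alone against the group under any of 13 alternatives or 9 fits without a library. Counts of members are given with the share of all genes tested that the same setting called. For 1 day alone against the group, 1 member (tim) was called with 6 settings and with the body tissue term. DESeq2 called 4 (14.7% of all genes with an adjusted p). With only libraries without body tissue it was 6 (50.4%), and with both the length trend removed and the body tissue term, a setting added after the data were seen, 3 (9.67%), tim not among them. It was 0 with only the groups compared (1.06%), with only libraries with body tissue (0.646%) or with the length trend removed (6.40%). Leaving out a library gave 0 to 2. For 7 days against 1 day alone, the 2 calls became 3 with DESeq2 (13.2%) and 3 with the body tissue term (6.90%), in both cases by adding cry. They became 3 with length trend and body term together (per, cry and Pdf, without tim, 11.9%), 1 without a filter on low counts (2.16%), 1 with the length trend removed (7.15%), 0 with only the groups compared (0.250%), 0 with only libraries with body tissue (2.38%) and 7 with only libraries without it (42.4%). Leaving out a library gave 0 to 2. In the test of any difference, 1 call became 2 with RLE normalization (4.21%), 2 with a filter of 1 CPM (6.15%), 2 with limma-voom (4.91%), 3 with DESeq2 (16.7%), 3 with length trend and body term together (12.2%), 7 without body tissue (51.0%), 0 with body tissue only (1.60%) and 0 with the length trend removed (7.17%). Leaving out a library gave 0 to 2. The libraries without body tissue hold 1 library each of 7 days and 1 day alone, so their spread comes from 2 group libraries, assumed to hold for the others. That fit called 5606 of 11133 genes at 1 day alone against the group and 4718 of 11133 between the isolation times, where cwo reversed (0.22, against -0.12). The cause was not tested.

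With a replicate block, the calls were 1 at 1 day alone against the group, 0 between the isolation times and 0 for any difference, and over all genes 0 at 7 days alone against the group, 162 and 126. Equally numbered libraries correlated in their deviations at r from -0.233 to 0.0424 among genes with a body effect under 0.5 on the log2 scale. With all genes taken, where body tissue enters, r ran from -0.978 to 0.934. Such correlations cannot show whether equally numbered samples were collected or kept together, and the labels do not say. Over all genes the main counts of 39, 513 and 599 ranged from 0 to 827, from 87 to 5606 and from 32 to 4718 under the other alternatives.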
